A study of Mus musculus with 11 samples.

Results

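The control arm of a treatment study in mice, 5 lungs of 11 samples, was described gene by gene. The members were all lungs whose label begins with hIgG1, and every one of the 770 genes of the table was kept. The lungs came from female BALB/c mice that received 4T1-luc2 cells, 250000 of them, in the mammary fat pad at 8 weeks of age. 4T1-luc2 is a BALB/c mammary carcinoma line that carries luciferase and is known to spread to the lung. The primary tumor was resected at day 13. The human IgG1 isotype control antibody, hIgG1, was injected intraperitoneally between days 7 and 28, with 3 doses of 1 mg/kg in each week. Each lung was collected when its mouse was euthanized, on a day that the sources used here do not give, and was dissociated into single cells from which total RNA was extracted. The mice carry the numbers 3, 4, 6, 7 and 8 and are separate animals, and values of the 5 lungs are given in that order throughout. The tumor cells, the resection and the isotype antibody were common to all 5 lungs, so that none of them is the lung of an untreated or tumor-free mouse.

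Expression was measured with the nCounter, which counts single transcripts through a pair of probes that carries a color code, without amplification. A dissociated lung holds endothelium, epithelium, stroma, resident macrophages and circulating leukocytes. In the 4T1 model, neutrophils and their precursors are known to expand widely and to fill the lung. The values were log2 normalized counts, so that a difference of 1 is a 2-fold difference. Each transcript is read by 1 pair of probes, which makes a length correction unnecessary, but the pairs differ in efficiency to an unknown degree. The rank of a gene is therefore a rank of counts per probe pair. In bulk lung, fewer cells of a type and less RNA per cell cannot be told apart.

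The lungs held 580102 to 667587 normalized counts in all, which correspond to an estimated 590856 to 666418 counted molecules. Every lung had a lowest value that many genes shared, at 13.1, 12.5, 14.7, 10.4 and 13.7 normalized counts. A gene at that value has a limit and not a level. The 20 housekeeping genes averaged 9.01 in every lung, an equality that the normalization had set. The markers of the labelled tissue were measured far above the lowest value in every lung. Pecam1, the endothelial adhesion molecule CD31, was at 12.50, 12.74, 12.54, 12.61 and 12.68 log2. Cdh1, the epithelial cadherin, was at 10.92, 11.01, 11.09, 10.99 and 10.93. Lung 8 stood apart from the others. Across the 653 genes that averaged 20 normalized counts or more, its Pearson correlation with another lung was 0.975 to 0.981, whereas pairs of the other lungs were at 0.986 to 0.994. Genes are not independent replicates, and these correlations across genes are given as a description. Between 19 and 30 genes differed over 2-fold in the pairs with lung 8, and between 2 and 20 in the pairs without it.

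Many of the genes that set lung 8 apart were T cell genes. Of the 18 measured members of a list of T cell receptor complex and signaling genes, 16 were highest in lung 8 and 14 were lowest in lung 4. For comparison, 641 genes passed the filter and lay above the lowest value in every lung. Of these comparison genes, 132 were highest in lung 8 and 190 were lowest in lung 4. The mean of the list was 5.34, 4.89, 5.17, 5.56 and 6.32 log2. The members took 0.344% of all normalized counts in lung 8 and 0.116% to 0.165% in the other lungs. The number of members highest in lung 8 was 16 also with equal medians and with quantile normalization. The median SD of the members was 0.61 with all lungs and 0.32 without lung 8, beside 0.19 and 0.18 over all genes that passed the filter.

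Cd8a, the alpha chain of the CD8 coreceptor, was at 4.58, 4.32, 4.62, 4.76 and 6.96. Lung 8 was 4.59 times the highest of the other lungs, which lay close together. Cd8b1, the beta chain, was at 4.40, 3.64, 4.09, 4.23 and 6.38, and lung 4 was at its lowest value. Over the other lungs Cd8b1 averaged under 20 normalized counts, so that it passed the filter only through lung 8. Lck, the kinase that starts signaling at the T cell receptor, was at 6.40, 6.18, 6.38, 6.66 and 8.25. Here too the other 4 lungs stayed within a narrow range, and lung 8 was 3.00 times the highest of them. Thy1, a surface protein of mouse T cells that fibroblasts also carry, was at 7.12, 6.86, 7.10, 7.48 and 8.80. Tcf7, which encodes the T cell factor TCF1, was at 7.55, 7.58, 7.45, 7.51 and 9.14. The other lungs differed by less than 0.13 in Tcf7, and lung 8 was 2.95 times the highest of them.

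The CD3 chains, which carry the signal of the receptor into the cell, had the same highest lung. Cd3g was at 7.05, 6.91, 6.91, 7.39 and 8.52, and Cd3e was at 5.87, 5.32, 5.62, 6.08 and 7.00. Cd3d was at 7.56, 6.84, 7.02, 7.85 and 8.34, where lung 8 was only 1.40 times lung 7. Cd4, the other coreceptor, was at 5.43, 4.80, 5.20, 6.15 and 6.56, with lung 7 near lung 8. Sh2d1a, which encodes the adaptor SAP, was at 4.92, 4.39, 4.50, 5.19 and 6.45. The exceptions were Cd7 and Cd28, which were highest in lung 7. Cd7 was at 5.27, 4.85, 5.47, 5.65 and 5.46, and Cd28, a costimulatory receptor, was at 4.78, 4.16, 4.82, 4.97 and 4.73. Il7r, the IL-7 receptor chain of naive and memory T cells, was also highest in lung 7, at 7.47, 6.94, 7.23, 8.06 and 7.54.

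The widest gene of the whole table was Rag1, the recombinase subunit that rearranges antigen receptor genes in developing lymphocytes. Rag1 was at 3.71, 3.64, 3.87, 3.87 and 8.05, and lungs 3, 4 and 6 were at their lowest value. Lung 8 was at least 18-fold higher than any of the other 4 lungs, a bound for those at the lowest value. Ccr9, a chemokine receptor of thymocytes and gut-homing T cells, was at 3.71, 3.64, 3.87, 4.45 and 6.59. Ccl25, the ligand of Ccr9, made mainly by thymic and intestinal epithelium, was at 3.71, 4.39, 4.01, 4.06 and 5.40. A list of 7 genes was drawn up after these values had been seen. It held Rag1, Ccr9, Cd8a, Cd8b1, Cd4 and Tcf7, known together from immature T cells of the thymus, and the epithelial Ccl25. All 7 were highest in lung 8, as their choice had fixed in advance, so this count supports no reading of lung 8. Together they took 0.219% of the counts there and 0.0502% to 0.0528% in the other lungs, which the choice favored too. Rag1, Ccr9, Cd8b1 and Ccl25 averaged under 20 normalized counts over the other lungs and passed the filter only through lung 8. Igll1, a surrogate light chain gene of developing B cells, was at 3.71, 3.64, 3.87, 3.65 and 3.78, which was the lowest value in every lung but lung 7. The part of thymic or other immature T cells in the values of lung 8 was not tested.

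**Figure D1:**
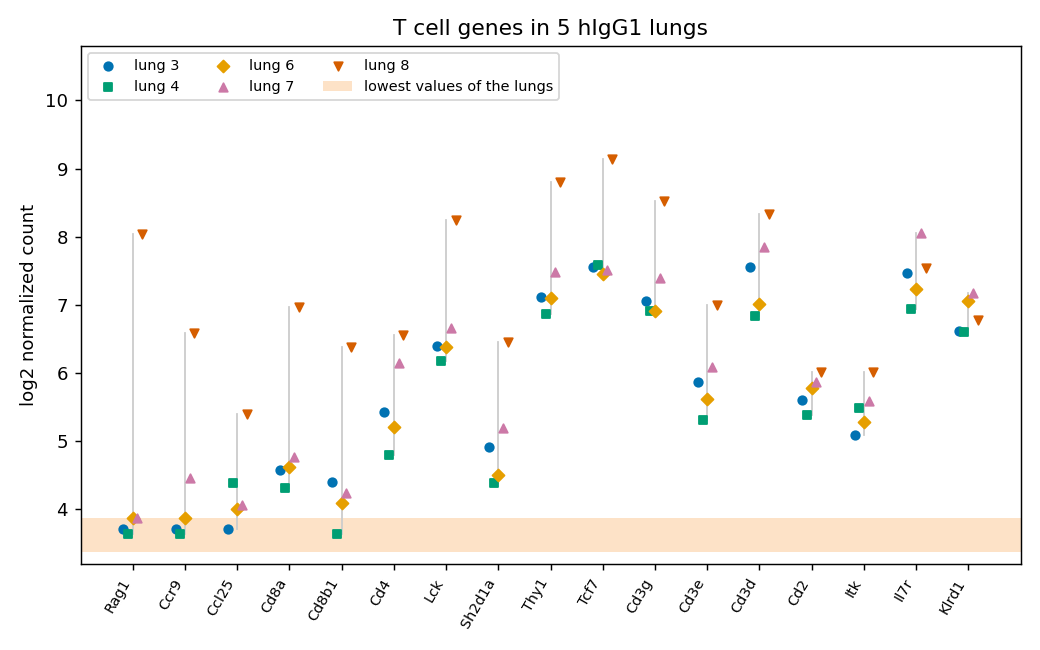
Log2 normalized counts of T cell genes, and of Ccl25 and Klrd1, in the 5 hIgG1 lungs, 1 symbol per lung. A line runs from the lowest to the highest lung, and a band marks the lowest values of the lungs. Lung 8 lies above the other lungs for Rag1, Ccr9, Cd8a, Cd8b1, Lck, Thy1 and Tcf7, and not for Il7r or Klrd1.

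The levels of the 770 genes spanned from the lowest value to 16.87 log2, and few genes held most counts. The mean lay between 1000 and 10000 normalized counts for 113 genes and above 10000 for 3. Between 100 and 1000 normalized counts lay 336 genes, between 20 and 100 lay 201, and 117 genes stayed under 20. The 20 highest genes of each lung held 44.6%, 42.5%, 42.5%, 45.8% and 41.7% of its counts, and the 100 highest held 73.8% to 75.4%. Of the 20 highest genes, 15 were the same in every lung, and 23 genes were among the 20 highest of at least 1 lung.

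The highest gene in every lung was S100a8, a calcium-binding protein that neutrophils hold in their cytosol in large amounts. S100a8 was at 16.69, 16.17, 16.14, 16.87 and 16.07 (mean 16.39 ± 0.37, SD, n = 5). It took 11.8% to 17.9% of all normalized counts, and lungs 7 and 3 were above the others. The second gene in every lung was Lyz2, lysozyme of myeloid cells and alveolar epithelium, at 15.09, 15.34, 15.28, 15.34 and 15.15, with a mean share of 6.40%. The third in every lung was Cxcl15, known as lungkine, a chemokine made by mouse airway and alveolar epithelium. Cxcl15 was at 14.18, 14.34, 14.66, 14.49 and 14.46, with a mean share of 3.66%. Lung 6, which held the most Cxcl15, was among the lower lungs for S100a8.

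The genes at ranks 4 to 20 of the mean came from several cell types. Cd36, a fatty acid transporter of endothelium and macrophages, had a mean of 13.27 ± 0.09 (SD, n = 5). Thbd, the endothelial thrombin receptor thrombomodulin, was at 12.64, 12.83, 12.58, 12.64 and 13.06, with lung 8 highest. Lamp3, a lysosomal protein of surfactant-secreting type II cells and of mature dendritic cells, was at 12.48, 12.83, 12.77, 12.63 and 12.59. Lcn2, the siderophore-binding lipocalin of neutrophils and inflamed epithelium, was at 13.26, 13.39, 13.09, 13.33 and 12.83, with lung 8 lowest. Antigen presentation was represented by H2-D1 with a mean of 12.92, by Cd74, the invariant chain, with 12.80, and by H2-Aa with 12.32. Ppia and Rpl19 were the housekeeping genes among the 20 highest.

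**Figure D2:**
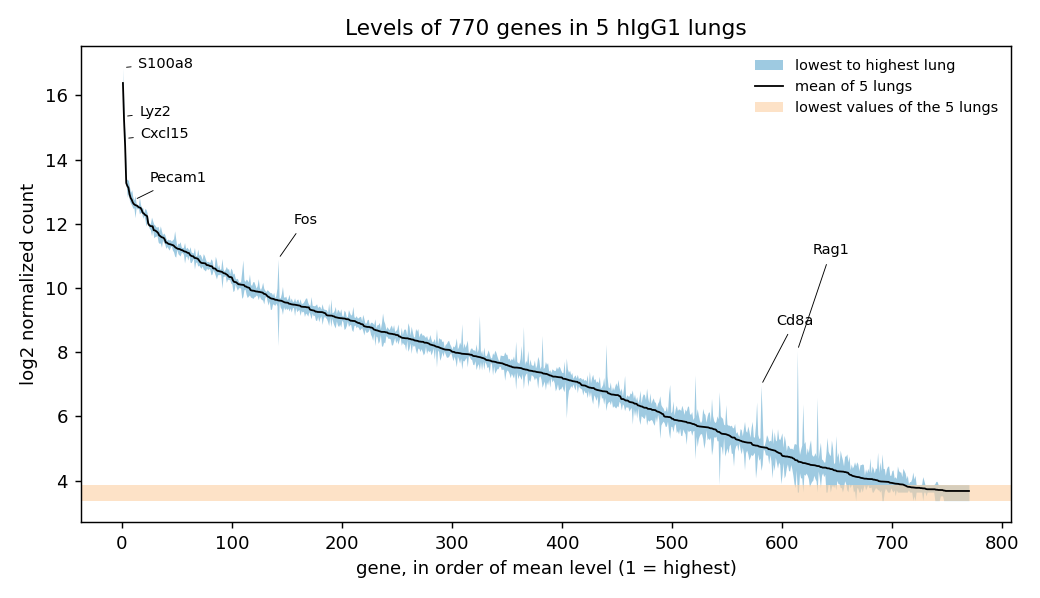
Log2 normalized count of each of the 770 genes against its rank by mean level, with the mean of the 5 hIgG1 lungs as a line, the lowest to the highest lung as a shade, and the lowest values of the lungs as a band. S100a8, Lyz2 and Cxcl15 lie above a mean of 14 log2, and the widest shade belongs to Rag1.

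Neutrophil genes were mostly highest in lung 7 or lung 3. All 11 measured markers passed the filter, and the mean of the list was 9.75, 9.51, 9.29, 9.83 and 9.33. The highest lung was lung 7 for 5 markers and lung 3 for 3, beside 236 and 80 of the 641 comparison genes. With equal medians lung 3 was highest for 6 markers and lung 7 for 1, beside 162 and 62 of the comparison genes. The order of these lungs therefore depended on the scaling. Cxcr2, the receptor that draws neutrophils out of the marrow, was at 11.34, 11.07, 10.78, 11.42 and 11.08. Csf3r, the G-CSF receptor, was at 10.98, 10.62, 10.59, 11.07 and 10.62. Mmp9, a gelatinase of neutrophil granules, departed from this order, at 9.89, 9.85, 9.50, 9.87 and 9.99, with lung 6 lowest.

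Genes of the granule proteins, which are transcribed mainly in neutrophil precursors, differed in their spread, from an SD of 0.22 for Lcn2 and 0.19 for Mmp9 to one of 0.44 for Ltf. Camp, a cathelicidin, was at 10.92, 10.33, 10.38, 10.91 and 9.99. Ltf, lactoferrin, was at 6.73, 5.90, 5.94, 6.69 and 5.88. Mpo, myeloperoxidase, was at 8.45, 7.88, 7.85, 8.19 and 7.54. In each of these 3 genes lungs 3 and 7 were above the others, and lung 8 was lowest. Elane, neutrophil elastase, followed at 6.88, 6.22, 6.56, 6.84 and 6.20. Ctsg, cathepsin G, was at 6.69, 6.02, 6.39, 6.58 and 6.29, with lung 4 lowest.

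Among the chemoattractants of neutrophils the epithelial Cxcl15 stood far above the others. Cxcl1, a main ligand of Cxcr2, was at 4.92, 4.08, 5.75, 5.27 and 5.43, and Cxcl5 was at 4.83, 4.95, 5.44, 5.19 and 5.02. Ppbp, a platelet chemokine, was at 8.78, 8.23, 8.43, 8.60 and 8.85. Csf3, the gene of G-CSF, the growth factor of neutrophils, was at 6.10, 5.58, 5.41, 6.15 and 5.65. The higher Csf3 lungs were 3 and 7, as for S100a8. Il17a was at the lowest value in all 5 lungs.

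Monocyte and macrophage markers were all measured above the lowest value, at a list mean of 7.67, 7.87, 7.78, 7.89 and 7.58. Of 18 markers, 9 were lowest in lung 8 and none was highest there, also with equal medians and quantile normalization for the latter count. Of the 641 comparison genes, 147 were lowest and 132 were highest in lung 8 as deposited. Cd68, a lysosomal protein of macrophages, was at 9.14, 9.35, 9.37, 9.29 and 9.04. Csf1r, the receptor of M-CSF, was at 8.76, 8.77, 8.63, 8.76 and 8.51. Both differed by less than 0.35 between lungs. Chil3, a chitinase-like protein that alveolar macrophages make abundantly, was at 9.78, 10.87, 9.88, 10.24 and 9.73. Mrc1, the mannose receptor, was at 8.70, 9.43, 8.93, 9.17 and 8.64. Cd163, the haemoglobin scavenger receptor, was at 4.92, 6.37, 5.41, 5.65 and 4.88. Lung 4 was highest for Chil3, Mrc1 and Cd163, and lung 8 was lowest. Marco, a scavenger receptor of alveolar macrophages, was also highest in lung 4, at 5.00, 6.10, 5.64, 6.04 and 5.56. Ccr2, the receptor of circulating inflammatory monocytes, had another order, at 9.89, 9.38, 9.43, 10.05 and 9.18.

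ChemR23, encoded by Cmklr1, is the receptor for resolvin E1 and chemerin, and it is the target of the antibody given to the other arm. In the control lungs Cmklr1 was at 10.34, 10.26, 10.28, 10.31 and 10.60, a mean of 10.36 ± 0.14 (SD, n = 5) and rank 97 of 770. Lungs 3, 4, 6 and 7 lay within 0.08, and lung 8 was 1.20 times the highest of them. With equal medians these 4 lungs were at 10.18 to 10.38 and lung 8 at 10.57. Ccrl2, a chemerin-binding receptor without signaling, was at 8.40, 8.70, 8.38, 8.47 and 8.72. Fpr2, a receptor for lipoxin A4 and annexin A1, was at 9.80, 9.79, 9.57, 9.86 and 9.34. Anxa1, the gene of annexin A1, was at 12.79, 12.62, 12.46, 12.87 and 12.19. Fpr2 and Anxa1 were lowest in lung 8. Ptgs2, cyclooxygenase 2, was the widest member of this group, at 6.77, 7.82, 7.66, 7.58 and 5.95. Spp1, the gene of osteopontin, made by macrophages, epithelium and tumor cells, was at 8.35, 8.79, 8.93, 8.48 and 8.74.

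C3 and Hc were among the best measured complement genes, and the genes of the classical pathway list were most often lowest in lung 3. Of 9 measured genes of this list, 5 were highest in lung 4 and 6 were lowest in lung 3, beside 107 and 153 of the 641 comparison genes. The other 3 were lowest in lung 8, C3 and C4b among them. Not all 9 encode components of the pathway, as Serping1 and C1qbp were included. C3, the central component, was at 11.48, 11.94, 11.54, 11.72 and 11.41. C1qa, a chain of C1q made by macrophages, was at 7.96, 8.52, 8.40, 8.38 and 8.22. C4b was at 9.01, 9.66, 9.09, 9.13 and 8.80, with lung 4 highest. Hc, the gene of C5, had a mean of 11.09 ± 0.14 (SD, n = 5). Of 20 genes of the alternative and terminal pathways, 12 passed the filter. C9 was at 3.71, 3.64, 3.87, 3.65 and 3.78, at the lowest value in all lungs but lung 7. Cfd, factor D or adipsin, a product of fat cells and macrophages, was the widest gene that lay above the lowest value in all lungs. Cfd was at 4.73, 7.29, 6.74, 5.27 and 4.67, so that lungs 4 and 6 were apart from the other 3.

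Genes of MHC class II were among the steadier groups, with a range of 0.228 in the list mean. MHC class I and peptide loading had a range of 0.450, above the 0.355 of the median list. Cd74 was at 12.64, 12.70, 12.90, 12.81 and 12.98, and H2-Aa was at 12.27, 12.31, 12.32, 12.35 and 12.35. H2-Aa, the alpha chain of I-A, had an SD of 0.03, among the 10 smallest of the well measured genes. Of 13 genes of MHC class I and peptide loading that passed the filter, 11 were lowest in lung 4, and 9 with equal medians. Of the 641 comparison genes, 190 were lowest in lung 4, and 113 with equal medians. Tap1, a subunit of the peptide transporter, was at 8.77, 8.19, 8.68, 8.91 and 8.61. Psmb9, a subunit of the immunoproteasome, was at 8.11, 7.78, 8.34, 8.43 and 8.37. In both genes the other 4 lungs were above lung 4.

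Genes induced by type I interferon were most often highest in lung 8 and lowest in lungs 3 and 4. Of 26 genes that passed the filter, 13 were highest in lung 8, and 12 were lowest in lung 4 and 11 in lung 3. Of the 641 comparison genes, 132 were highest in lung 8, and 190 were lowest in lung 4 and 153 in lung 3. The mean of the list was 8.01, 7.96, 8.18, 8.31 and 8.42. The number of list members highest in lung 8 was 12 with equal medians and 15 with quantile normalization. Ifi44 was at 7.60, 7.54, 8.52, 8.46 and 8.74, so that lungs 3 and 4 were apart from the other 3. Oas3, a synthetase of 2-5A, the activator of RNase L, was at 5.73, 5.80, 6.29, 6.63 and 6.88. Oasl1, a related protein, was at 7.15, 7.21, 7.23, 7.71 and 8.21. Isg15, a ubiquitin-like modifier, was at 5.58, 5.52, 6.13, 5.97 and 6.70. Ifit1, which binds uncapped viral RNA, was at 6.77, 7.05, 7.15, 7.17 and 7.72. The highest lung was lung 8 for all 5 of these genes. Other members were steadier, such as Ifi27 with a mean of 10.69 ± 0.08 (SD, n = 5). Mx1 was at the lowest value in lungs 3, 4, 6 and 8, and it was at 3.87 in lung 7, against a lowest value of 3.38 there. A premature stop or deletion in Mx1 is known in most laboratory mouse strains.

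These genes are known to be bound through an interferon-stimulated response element. The letters GAAA, any 2 bases and GAAA again (TTTC, any 2 bases and TTTC on the other strand) were searched on both strands of RefSeq promoter windows of build GRCm38.p6, from 250 bases before to 50 bases after each start. Of the 26 genes, 20 had a window, and the letters were found in 12 of them (60%), beside 1079 of 27025 genes in all (3.99%). A match is a description of these letters and does not show binding. The 120 bases before the start are shown for 3 of the genes that were highest in lung 8, 5′ to 3′ on the strand of the gene, with the matches in capitals. These 3 were chosen because they held matches. Isg15 held 3 overlapping matches, Ifit1 held 2 and Oas3 held 1, while the windows of Ifi44 and Oasl1 held 0.
Oas3 (chr5:120777660-120777779, minus strand): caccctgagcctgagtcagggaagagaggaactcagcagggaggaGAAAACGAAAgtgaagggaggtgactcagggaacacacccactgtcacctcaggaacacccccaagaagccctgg
Isg15 (chr4:156200819-156200938, minus strand): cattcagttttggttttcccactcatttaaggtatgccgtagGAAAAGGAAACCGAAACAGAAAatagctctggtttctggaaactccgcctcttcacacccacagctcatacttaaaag
Ifit1 (chr19:34640769-34640888, plus strand): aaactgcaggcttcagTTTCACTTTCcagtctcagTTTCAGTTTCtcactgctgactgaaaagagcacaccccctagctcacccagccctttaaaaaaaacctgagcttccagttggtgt

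The interferons themselves were at or near the lowest value. Ifnb1 and Ifna2 were at the lowest value in all 5 lungs. Ifng was at 3.71, 3.90, 3.87, 3.76 and 3.78, at the lowest value in lungs 3, 6 and 8. Their receptors were well measured, with a mean of 11.37 ± 0.13 (SD, n = 5) for Ifngr1. Cxcl10 and Cxcl9, chemokines known to be induced by interferon, were low. Cxcl10 was at 4.52, 4.24, 4.67, 4.82 and 4.67, and Cxcl9 was at 4.52, 4.08, 5.41, 4.87 and 4.93.

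B cell genes were low. Of the 12 that passed the filter, lung 3 was highest for 6 and lung 4 was lowest for 6, beside 80 and 190 of the 641 comparison genes. With equal medians these numbers were 7 and 6, beside 162 and 113. With quantile normalization they were 6 and 4, beside 149 and 153. Ms4a1, the gene of CD20, was at 6.86, 6.28, 6.52, 6.82 and 6.93. Pax5, the transcription factor that commits cells to the B lineage, was at 5.66, 4.99, 5.09, 4.82 and 5.33. Lung 8 was highest for 2 of the 12 genes, near its share of 132 of the 641 comparison genes. Cd79a, a chain of the B cell receptor, was at the lowest value in all lungs but lung 3, where it was at 4.12, while its partner Cd79b was at 6.87, 6.55, 6.63, 6.37 and 7.07.

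Genes of the natural killer and cytotoxic list were mostly low, at a list mean of 5.63, 5.49, 5.68, 5.87 and 5.66. Of 29 genes of the list, 19 passed the filter, and 12 were at the lowest value in at least 1 lung. Gzma, a granzyme of killer cells, was at 7.34, 7.34, 7.95, 8.06 and 7.81. Klrd1, the gene of CD94, was at 6.62, 6.61, 7.06, 7.18 and 6.78. Ncr1, the activating receptor NKp46, was at 5.94, 6.12, 6.67, 6.25 and 6.37. Lungs 3 and 4 were the lower lungs in Gzma, Klrd1 and Ncr1, but the list as a whole had no such order. Of its 19 genes, 5 were lowest in lung 3 and 6 in lung 4, near the shares of 153 and 190 of the 641 comparison genes. Prf1, perforin, was lowest in lung 6, at 5.30, 5.12, 4.82, 5.19 and 5.62. Gzmb was lowest in lung 8, at 4.33, 4.24, 4.87, 4.87 and 4.06. Klra17 and Klra2, of the Ly49 family, were the highest of the list and raised its mean, with means of 8.33 and 7.97. Which cells expressed them was not tested, and a place on the list does not make them markers of killer cells. The members of the Ly49 family are near copies of each other, and probes may not tell all of them apart.

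Immune checkpoint genes were mostly low and were led by Cd274, the gene of PD-L1, at 7.87, 7.79, 7.92, 8.12 and 7.90. Its receptor Pdcd1 was at 3.71, 3.80, 3.87, 3.76 and 4.88, at the lowest value in lungs 3 and 6 and highest in lung 8. Ctla4 was at 3.71, 4.08, 3.92, 4.06 and 3.78. Foxp3, the factor of regulatory T cells, and Ido1, an enzyme that degrades tryptophan, were at the lowest value in all 5 lungs. Of 18 checkpoint and regulatory genes, 8 passed the filter.

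Interleukin genes ran from the lowest value to the upper part of the range. Of 28 interleukin genes, 10 passed the filter, 15 were at the lowest value in at least 1 lung and 5 in all lungs. The highest of them was Il1b, the gene of interleukin-1 beta, at 12.21, 11.62, 11.77, 12.08 and 11.94, and rank 27 of 770. Lungs 3 and 7 were highest for Il1b as deposited, as for S100a8, but lung 8 was close to lung 7. Il1rn, the antagonist of the IL-1 receptor, was at 7.95, 7.89, 7.94, 7.98 and 7.92. Its SD of 0.03 was among the 10 smallest too. Il1r2, the decoy receptor, was at 7.95, 8.26, 7.55, 8.15 and 7.46. Il18 was at 8.38, 8.88, 8.44, 8.71 and 8.25. Il6 was at 4.20, 3.80, 4.50, 4.06 and 3.78, and Il10 was at the lowest value in all lungs but lung 7, where it was at 4.38.

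Among the chemokines, a few were high and steady. Cxcl12, which retains leukocytes and stem cells through Cxcr4, had a mean of 11.15 ± 0.09 (SD, n = 5). Ccl21a, made by lymphatic endothelium to attract cells with Ccr7, was at 9.76, 10.02, 9.84, 9.80 and 9.97. Ccl9, a myeloid chemokine of rodents, had a mean of 9.63 ± 0.11 (SD, n = 5). Ccl6, also a rodent myeloid chemokine, ranged from 8.76 in lung 7 to 9.43 in lung 4. Inflammatory members were low, such as Ccl2, which recruits monocytes, at 5.40, 4.80, 5.92, 5.94 and 5.22. Ccl5 was at 7.20, 7.49, 7.74, 7.34 and 7.89.

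All 21 Toll-like receptor and adaptor genes passed the filter, and none had an SD of 0.5 or more. Tlr4, the receptor for lipopolysaccharide, was at 8.28, 8.63, 8.43, 8.68 and 8.67. Tlr1 was at 8.68, 8.38, 8.06, 8.70 and 8.36. Lung 7 was highest for 12 of the 21 genes as deposited, beside 236 of the 641 comparison genes. It was highest for 0 of the 21 with equal medians or quantile normalization, so that this order depended on the scaling.

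The endothelial list had the smallest range of the lists, leaving out the housekeeping genes, which the normalization had set equal. Its mean was 10.48, 10.47, 10.49, 10.58 and 10.58, and the median SD of its 16 members was 0.12. Tek, the angiopoietin receptor, was at 11.83, 11.74, 11.61, 11.90 and 11.79. Kdr, the main VEGF receptor, was at 11.14, 11.03, 11.25, 11.29 and 11.38. Vwf, von Willebrand factor of endothelium and platelets, was at 11.16, 11.31, 11.14, 11.40 and 11.07. Sele, the selectin that endothelium makes when it is activated by cytokines, was at the lowest value in all 5 lungs. Icam1, another adhesion molecule, was at 10.17, 10.28, 10.67, 10.54 and 10.47.

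Epithelial genes differed little as well. Muc1 was at 11.13, 11.51, 11.54, 11.28 and 11.18, and Epcam had a mean of 8.62 ± 0.08 (SD, n = 5). Normal lung epithelium expresses these genes, and 4T1 cells are of epithelial origin too. The share of tumor cells in a lung could therefore not be read from them and was not tested. Stromal genes were led by Vim, vimentin, at 12.32, 12.31, 12.30, 12.45 and 11.93, with lung 8 lowest. Fn1, fibronectin, was at 11.75, 11.27, 11.58, 11.78 and 11.54. Col3a1 was at 10.99, 11.00, 11.78, 11.30 and 11.36, and Col1a1 was at 9.45, 9.45, 9.99, 9.75 and 9.50. Both collagens were highest in lung 6.

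Genes of mast cells and type 2 immunity were mostly low and were led by Il4ra, the IL-4 receptor chain, with a mean of 10.05, and Kit, the stem cell factor receptor, with a mean of 9.05. Il4 was at the lowest value in all 5 lungs. Cma1, a mast cell chymase, was at 4.27, 3.90, 4.09, 4.31 and 4.88, with lung 8 highest. Dendritic cell genes had no member with an SD of 0.5 or more. Xcr1, of cross-presenting dendritic cells, was at 5.87, 5.69, 5.31, 6.04 and 5.56. Ccr7, which guides dendritic cells and naive T cells to lymph nodes, was at 7.80, 7.26, 7.23, 7.75 and 7.50.

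**Figure D3:**
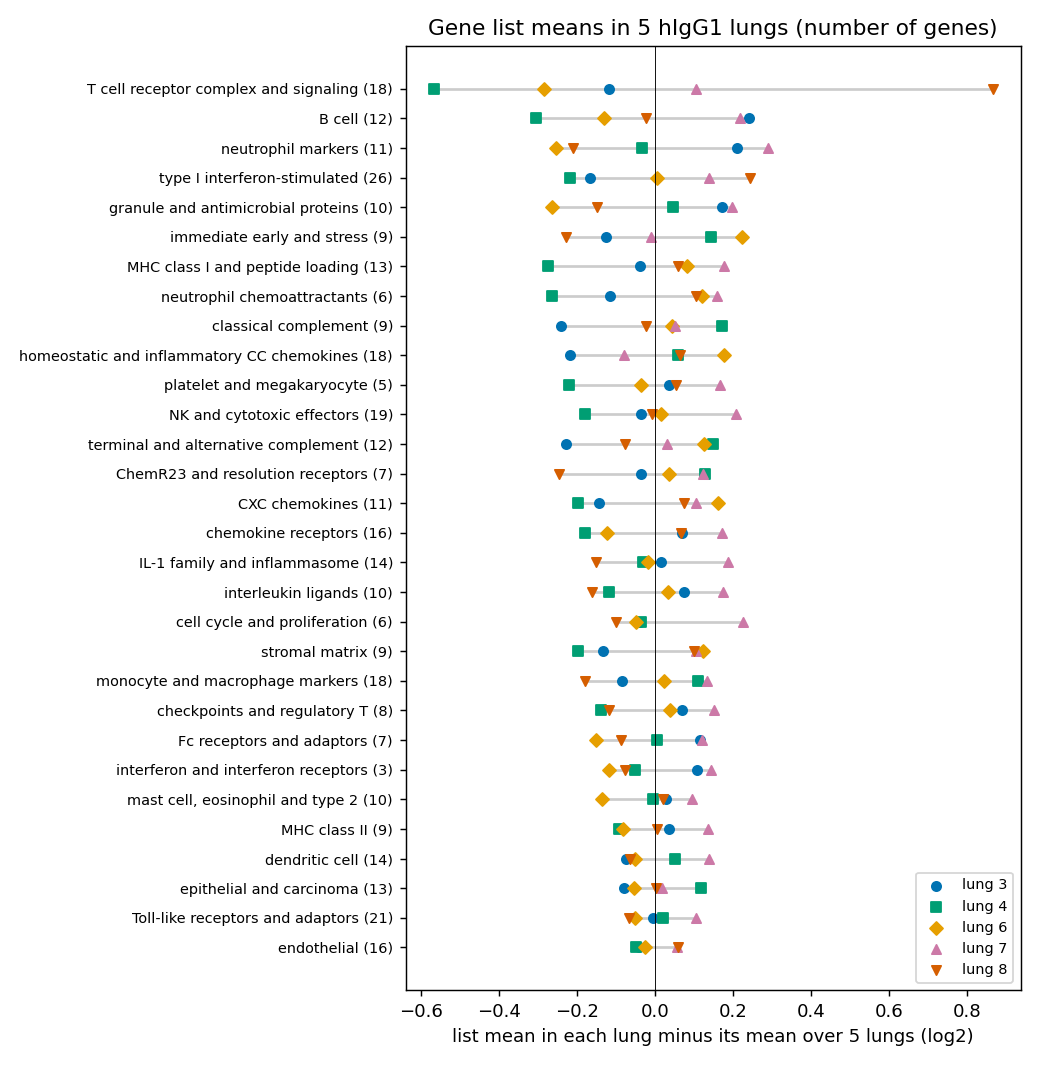
Mean log2 normalized count of each gene list in each of the 5 hIgG1 lungs, minus the mean of that list over the lungs, with 1 symbol per lung and the number of genes in parentheses. The T cell list has the largest range, 1.43, with lung 8 on the right, and the endothelial list has the smallest, 0.108.

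Of the 770 genes, 20 were at the lowest value in all 5 lungs (2.60%) and 111 in at least 1 lung (14.4%). The 20 genes were Ccl26, Defb1, Dmbt1, Foxp3, Ido1, Ifna2, Ifnb1, Il11, Il12rb1, Il17a, Il23a, Il24, Il4, Klra15, Klra3, Klrb1, Mbl2, Mpped1, Sele and Usp9y. They hold cytokines of helper T cells and of activated epithelium, interferons, and receptors of killer cells. Usp9y lies on the Y chromosome, and the mice were female. The number of genes at the lowest value was 69, 80, 80, 35 and 65. Lung 7 had fewest, and its lowest value, 10.4 normalized counts, was also the smallest. Of 29 genes at the lowest value in 4 lungs, 17 were above it only in lung 7. In 13 of these 17 the value of lung 7 did not exceed 14.7 normalized counts, the highest of the lowest values, so that they were not shown to be higher in lung 7. Without lung 7, 37 genes were at the lowest value in all lungs.

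The SD between lungs was computed for the 653 genes that passed this filter. Its median was 0.19, its 10th percentile was 0.0853 and its 90th percentile was 0.399. The highest lung was 1.39 times the lowest in the median gene. An SD of 0.5 or more was found for 36 genes and of 1 or more for 6. Of the 36 genes, 19 were highest in lung 8 and 21 were lowest in lung 4. Only 26 of the 36 were above the lowest value in all lungs, and 14 of these were highest in lung 8. The others were at the limit of at least 1 lung, as was Rag1, and their lowest lung can reflect the height of that limit. Among them, Rag1, Ccr9, Cd8b1 and Ccl25 passed the filter only through lung 8. Of the 641 comparison genes, 132 were highest in lung 8 and 190 were lowest in lung 4. Without lung 8, 25 genes had an SD of 0.5 or more. The counting error of each gene was estimated from its number of counts. The SD between lungs was larger than this error in 564 genes (86.4%), and the median ratio of both was 1.96. The ratio grew with the level. It was 1.26 in the median gene between 20 and 100 normalized counts, 2.04 between 100 and 1000, and 4.38 between 1000 and 10000.

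**Figure D4:**
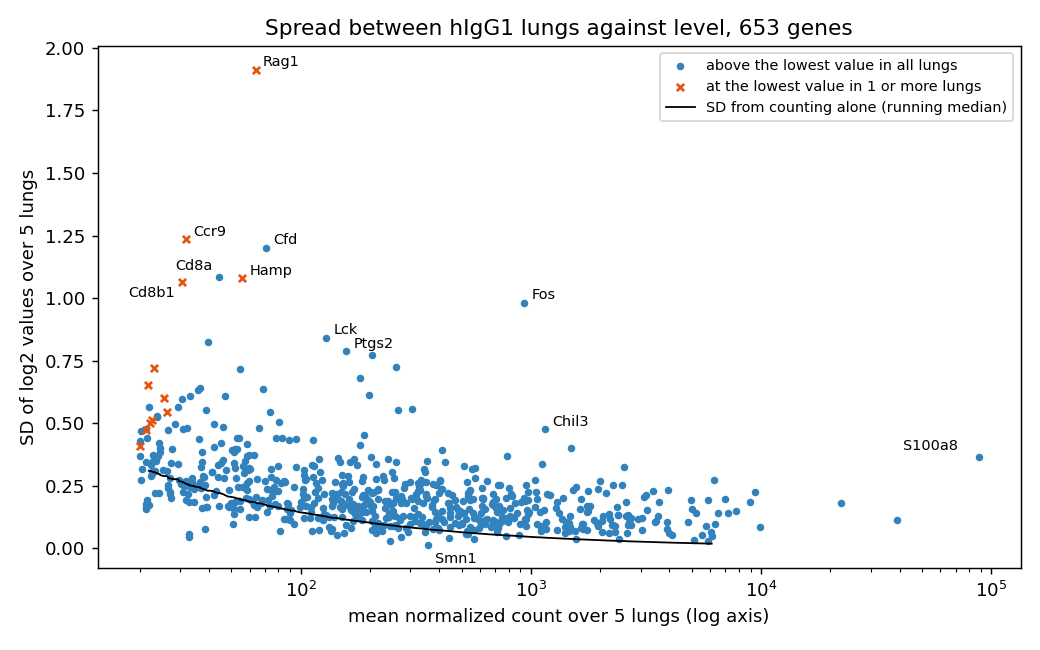
SD of the log2 values over the 5 hIgG1 lungs against the mean normalized count on a log axis, 1 point per gene for 653 genes, with the SD that counting alone would give as a line. Rag1, Ccr9, Cfd, Cd8a, Hamp and Cd8b1 lie highest, at an SD of 1 or more, and S100a8 lies far to the right at an SD of 0.37.

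Outside the T cell genes, the widest genes came from several functions. Fos, an immediate early transcription factor, was at 9.56, 10.03, 10.89, 9.38 and 8.21. Lung 6 was 6.44 times lung 8, beside an SD of 0.06 from counting. Egr1, another immediate early gene, was also highest in lung 6 and lowest in lung 8, at 7.80, 7.95, 8.89, 7.65 and 7.47. Jun, the partner of Fos in AP-1, had no such order, at 10.71, 11.02, 10.88, 10.91 and 10.81. Hamp, the iron hormone hepcidin, was at 5.23, 6.06, 3.87, 5.65 and 6.77, with lung 6 at its lowest value. Lif, a cytokine of the IL-6 family, was at 5.55, 4.45, 5.64, 5.49 and 5.56, with lung 4 alone low.

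Among genes that averaged 100 normalized counts or more, the steadiest were Smn1, Il1rn, Ppia, H2-Aa, Litaf, Cd34, Hsd11b1, Casp8, Cd48 and Ltbr. Smn1, which assembles splicing particles, was at 8.47, 8.50, 8.50, 8.49 and 8.47, with an SD of 0.015. That SD was below the 0.08 expected from counting. Cd34, a sialomucin of endothelium and progenitors, was at 11.21, 11.25, 11.30, 11.20 and 11.24. Litaf, a regulator of endosomal sorting, had a mean of 9.14 ± 0.04 (SD, n = 5).

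**Figure D5:**
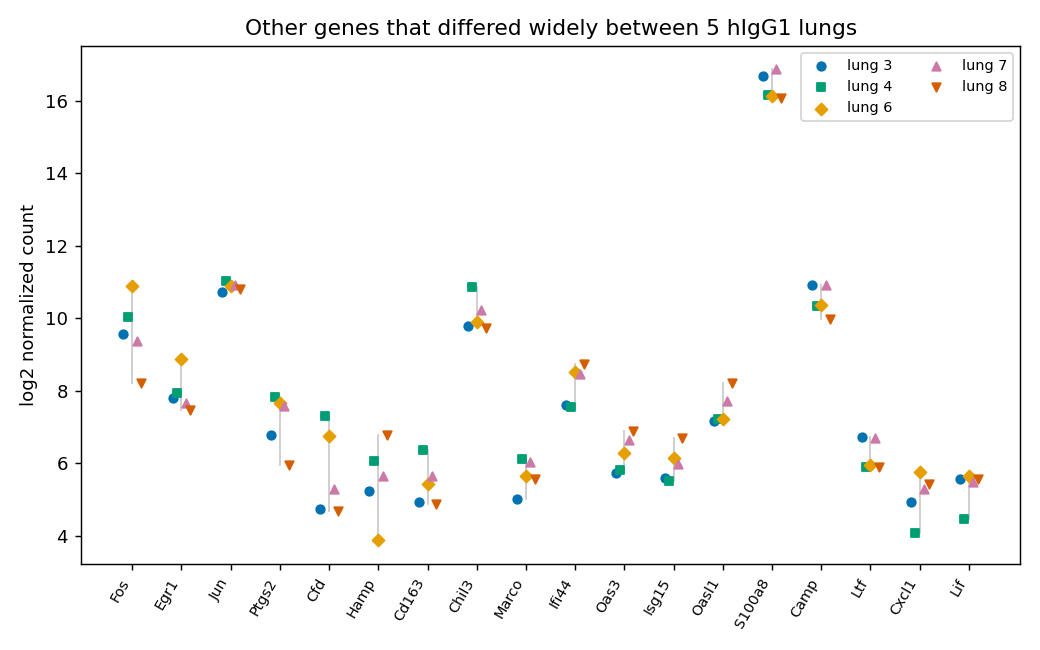
Log2 normalized counts of selected genes with a wide spread, and of Jun and S100a8, in the 5 hIgG1 lungs, 1 symbol per lung with a line from the lowest to the highest. Lung 6 is highest for Fos and Egr1, lung 4 for Cfd, Cd163 and Chil3, and lung 8 for Ifi44, Oas3, Isg15 and Oasl1.

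Which lung was highest or lowest depended on the scaling for many genes. As deposited, lung 7 was highest in 236 of the 641 genes that passed the filter and were above the lowest value in all lungs, and lowest in 27. With equal medians it was highest in 62 and lowest in 152, and with quantile normalization in 86 and 97. Setting equal medians moved the median of all genes by 0.10 in lung 4 and by -0.13 in lung 7. Differences between lungs of about this size have no settled direction, and those of Rag1, Cd8a, Lck and Tcf7 in lung 8, of Cfd and of Fos were several times larger.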

How the data were processed

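The table holds log2 normalized nCounter counts of 770 genes, which the authors made with nSolver and deposited. The nSolver settings, the probes and the day of collection are not given in the sources at hand. These differ on the panel and on the number of control mice, and the 5 samples labelled hIgG1 were used. Per the labels and methods, DESeq2 served the authors for differential expression, which is not analysed here, and the other 6 samples were not used.

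The members and the gene lists were chosen with earlier results of these data known. Only 1 group was described, so no test between groups was run. Base 2 and the counts behind the values were taken from the low values. Under 60 normalized counts, all values above the lowest were whole multiples, within 0.1 of a count, of a step of 0.917 to 1.04 fitted in each lung. The counting SD follows from the estimated counts and covers counting error only. List means were taken over members that averaged 20 normalized counts or more. Named genes were the 20 highest, the 20 with the largest and the 10 with the smallest SD among genes above the lowest value in all lungs, up to 5 highest and 3 widest members of each list, members at the lowest value in all lungs, Cmklr1 and Spp1. Others, such as Rag1, Igll1 and Il7r, were chosen after their values were seen. In the screen for outlying lungs, a lung was called apart by Dixon's ratio for 5 values. Elsewhere the word only describes the values or correlations given beside it. Symbols are those of the table, of which 754 stood in the RefSeq table of GRCm38.p6, 10 were matched by case or synonym and 6 were not matched. Calculations used Python 3.11.15 with pandas 2.3.3 and were tested on simulated data, and the alternatives were other filters, limits and scalings and leaving out each lung.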

Additional observations from a re-analysis of the deposited data

Results flagged for a closer look

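Named genes and list means were screened for a lung that lay apart from the other 4 by Dixon's ratio, that is, whose gap to the nearest other lung took up most of the range of the group. Of 243 groups screened, 11 were past the limit (4.53%), and chance alone flags about 1 in 20. Lung 8 was the one apart in 6 of the 11. With equal medians 6 of the 11 were still past the limit, and so were 6 with quantile normalization. These were Cd8a, Lck, Tcf7, Vim, Lif and Trp53 under both scalings, which were tried after seeing the data, so that the other 5 depended on the scaling. It was high in Cd8a at 6.96, beside 4.32 to 4.76 in the other lungs. It was also high in Lck at 8.25, beside 6.18 to 6.66, and in Tcf7 at 9.14, beside 7.45 to 7.58. Lung 8 was high by a smaller step in Cmklr1 at 10.60, beside 10.26 to 10.34, and in Dpp4, the peptidase CD26, at 9.89, beside 9.75 to 9.79. It was low in Vim at 11.93, beside 12.30 to 12.45. Lung 4 was low in Lif at 4.45, beside 5.49 to 5.65, and in Trp53 at 6.24, beside 6.84 to 7.05. Lung 3 was low in Cxcl2 at 3.78, beside 4.31 to 4.52. Lung 6 was low in Mmp9 at 9.50, beside 9.85 to 9.99. The mean of the cell cycle and proliferation list was high in lung 7 at 9.04, beside 8.71 to 8.78. With equal medians it was 8.82, 8.88, 8.78, 8.91 and 8.68, and lung 7 no longer lay apart.

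Over all 641 genes that passed the filter and were above the lowest value in every lung, 32 were past the same limit (4.99%). Of these, lung 8 was high in 9 and low in 6.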

How the results depend on the processing

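The mean levels of the 235 named genes moved by less than 1 SD with quantile normalization. This sets each lung to the mean distribution of the 5 lungs, which leaves a mean over the lungs nearly as it is. Equal medians leave a mean over the 5 lungs as it is, and leaving out 1 lung moves it by under 1 SD by construction. None of these alternatives therefore shows how stable these levels and the list means are. The median of all measured members in place of the mean moved 27 of 31 list means. The median SD of 0.19 was 0.172 with a minimum mean of 50 normalized counts, 0.178 on the scale of log2(normalized count + 10) and 0.179 with quantile normalization, and 0.175 to 0.189 without 1 lung. The number of genes with an SD of at least 0.5, 36, was 16 with a minimum mean of 50, 20 on the scale of log2(normalized count + 10), and 25 to 44 without 1 lung. The number of genes at the lowest value in all lungs, 20, was 40 with 1 common limit and 79 with a limit of 20 normalized counts, and 20 to 37 without 1 lung, the highest without lung 7. The number at the lowest value in at least 1 lung, 111, was 171 with a limit of 20 and 101 to 110 without 1 lung. Of the 50 highest genes, 44 were shared by all lungs, beside 15 of the 20 highest, and 15 to 17 of these without 1 lung. The share of the 20 highest genes was 42.8% to 43.8% and that of S100a8 13.5% to 15% without 1 lung. The median SD of the T cell list was 0.32 to 0.70 without 1 lung, the lowest without lung 8, which was an alternative added after seeing the data. The other alternatives kept these values within 1 SD, or counts within 1.5 times. The cause was not tested. Genes under 20 normalized counts rest on few counts, so their levels are limited by counting. No paired analysis was possible because only 1 group was used and it has no test.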
